A study of Homo sapiens with 8 samples.

Results

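The comparison described here sets Reh cells transfected with IRF5-4D alone against Reh cells transfected with control constructs, called mock. Its members were taken by title and are the 2 arrays of IRF5-4D and the 2 arrays of mock, so 4 of the 8 arrays of the series. Reh is an established line derived from an acute lymphoblastic leukaemia of precursor B cells, and RNA was measured on Affymetrix U133 Plus 2.0 arrays. IRF5-4D is described by the submitters as a constitutively active variant of the transcription factor IRF5. The other 4 arrays hold cells given IKKβ(EE), a constitutively active variant of IκB kinase β, or IRF5-4D together with IKKβ(EE). All arrays are of 1 cell line, and each group has 2 arrays that the submitters call biological duplicates and that carry the numbers 1 and 3. The share of cells that took up a construct and the time to harvest are not known here. Each value is an average over the cells of a sample, which may include untransfected ones. More RNA per cell and more responding cells can therefore not be told apart.

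IRF5 belongs to the interferon regulatory factors, a family of DNA-binding proteins that sit at the end of the Toll-like receptor and cytosolic nucleic acid pathways. Receptor signalling leads to phosphorylation of its C-terminal region, after which IRF5 forms dimers, enters the nucleus and switches on genes of inflammatory cytokines and, in some cells, type I interferons. Like its relatives it binds repeats of the letters GAAA, which make up the interferon-stimulated response element (ISRE). In B cells IRF5 is known for a role in plasma cell differentiation and antibody class choice.

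The values are log2 RMA expression values, in which a step of 1 is a 2-fold change. Array medians over all probe sets were at most 5.14, lower quartiles ran from 3.67 to 3.73, and the pair of arrays in a group correlated across genes at 0.994 for mock and 0.996 for IRF5-4D. Between the mock arrays 153 genes differed by at least 2-fold, and between the IRF5-4D arrays 39 did. The precursor B cell label was checked on 12 measured markers, of which 11 lay above the upper quartile of genes (8.90 to 8.95) on each of the 4 arrays, among them PAX5, EBF1, CD79A, IGLL1 and RAG1. Above the median of genes (6.13 to 6.17) on all 4 arrays lay 0 of 7 T and NK cell markers, 0 of 5 myeloid markers and 1 of 6 stromal and epithelial markers (COL1A1). Above the lower median of all probe sets lay CD4, the myeloid markers ITGAM, CSF1R and MPO, and KRT8 as well. Of these marker sets 0 members changed in limma, and the mean over the myeloid markers was 4.91 to 5.15 in mock and 4.87 to 5.07 with IRF5-4D.

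The transfected gene was examined first. The best expressed of 3 IRF5 probe sets read 6.93 and 7.06 on mock arrays 1 and 3 and 7.15 and 7.25 on IRF5-4D arrays 1 and 3, a log2 difference of 0.20 (SE 0.13) that did not pass. A second one read 5.36 and 4.82 in mock against 5.65 and 5.66 with IRF5-4D, 0.57 (SE 0.17, limma adjusted p = 0.688 over all probe sets), and the remaining one differed by 0.051. The values of the groups did not overlap on the first and second probe sets and did on the remaining one. Groups also lay apart for 31.2% of all genes, so the lack of overlap says little. It is not known whether these probes can read the transfected sequence, so IRF5 does not check the label. Of 3 IKBKB probe sets, the 1 with the largest difference in IKKβ(EE) cells read 4.80 and 4.06 in mock and 4.677 and 4.596 with IRF5-4D, against 12.57 and 10.98 with IKKβ(EE). On that probe set the IRF5-4D arrays lay within the range of mock.

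Nearly all genes called between IRF5-4D and mock were higher with IRF5-4D. A gene is said to have risen or fallen, or to be called, where limma's adjusted p (Benjamini-Hochberg over all genes) was under 0.05. Of 19775 genes 62 rose (0.314%) and 1 fell (0.00506%), which is 0.319% called in either direction. These shares are the background for each count of called list members below. Of the 63 called genes 60 differed by at least 2-fold, 25 by at least 4-fold and 9 by at least 8-fold, and the median size was 1.85 on the log2 scale. The arrays of both groups lay apart for all 63, as they did for 31.2% of all genes. The median difference of all genes was -0.016, and 1017 genes (5.14%) had an unadjusted p under 0.05, 487 of them higher and 530 lower. The one-sidedness of the called genes thus did not hold at that looser threshold. Of the 63, 33 lay below the median gene mean in mock cells, where the size of a rise is uncertain. By the meaning of a median as many of all genes lie below it as above it. The called genes were thus not set apart by low mock values.

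**Figure D1:**
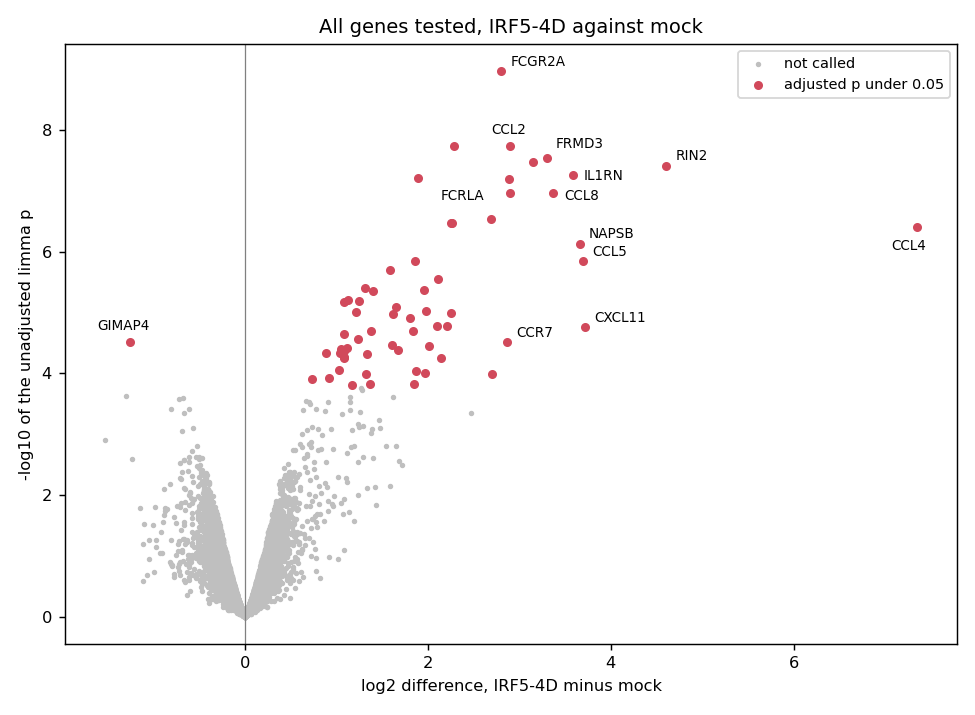
Each point is 1 of 19775 genes; the x axis is the log2 difference between IRF5-4D and mock and the y axis the -log10 of the unadjusted limma p. The 63 called genes (red) lie to the right of 0 except for GIMAP4, and CCL4 lies farthest right at 7.35.

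How firmly each call stands depends on the 2 arrays per group. Of the 63 calls, 24 stayed when replicate 1 of IRF5-4D was left out and 29 when replicate 3 was, and leaving out replicate 1 or 3 of mock kept 34 or 33. The 19 genes called in each of the 8 fits that leave out 1 array were CCL2, CCL4, CCL5, CCL8, DKK1, FCGR2A, FCRLA, FRMD3, HSPA6, IGLC1, IGLV1-44, IL1RN, KIT, LINC01619, NAPSB, NIBAN3, RAB11FIP1, RIN2 and SMIM14. Of the 63 called genes 0 changed sign in those 8 fits. That outcome was fixed beforehand, because the arrays of both groups lay apart for all 63, so it says nothing about how firm a call is. A fit that leaves a group with 1 array assumes that this array varies like the others.

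A chemokine, CCL4, gave the largest rise of all genes, and 5 chemokines were among the 10 genes with the largest rises. Of 20 measured CC chemokines 4 rose, 0 fell and 16 did not pass, where 0.314% of all genes rose (median difference 0.096, against -0.016 for all genes). CCL4, an inflammatory chemokine, read 6.28 and 4.49 on mock arrays 1 and 3 and 12.85 and 12.61 on IRF5-4D arrays 1 and 3. That is a difference of 7.35 (SE 0.57, limma adjusted p = 0.000513) or 163-fold. It moved to 8.24 without mock replicate 1 and 6.45 without mock replicate 3, so the fold rests on which mock array is used, and its spread was wider in mock (SD 1.27, n = 2) than with IRF5-4D (SD 0.17, n = 2). CCL4 has near-identical gene copies that its probe set may also read. CCL5, which draws T cells and monocytes, read 7.71 and 7.31 in mock and 11.39 and 11.03 with IRF5-4D, 13.0-fold higher, and its 3 probe sets rose by 3.36 to 3.85. All 4 values of the probe set used lay well over the lower quartile of the arrays.

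CCL2 and CCL8 are monocyte chemoattractants of the MCP type that neighbour each other. CCL2 read 4.48 and 4.52 in mock and 7.38 and 7.41 with IRF5-4D, so the arrays of a group were close to each other and the rise was 2.90 (SE 0.16, limma adjusted p = 0.000123). CCL8 read 3.598 and 4.17 in mock and 7.29 and 7.22 with IRF5-4D, a rise of 3.37 (SE 0.23). CCL7 and CCL11, the measured genes between them in RefSeq order, differed by -0.21 and -0.14 and did not pass. Likewise CCL16, CCL23 and CCL18, between CCL5 and CCL4 in that order, differed by -0.17, 0.050 and 0.29 and did not pass. The rises were thus called for 4 members of a gene-dense family whose closest measured neighbours were not called. This contrast between genes was not itself tested. Only 20 of 28 listed CC chemokines were measured, and CCL3 was not among them, so unmeasured members may lie closer. Probe sets with several gene symbols or none were left out, and 11 of these were called higher when tested alone. Whether any of them reads a chemokine was not examined.

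Of 18 measured CXC, XC and CX3C chemokines 1 rose and 0 fell (median -0.067). It was CXCL11, a ligand of CXCR3 on activated T cells, at 3.08 and 3.06 in mock and 7.578 and 5.998 with IRF5-4D. Here the spread lay on the side of IRF5-4D (SD 1.12, n = 2), and the difference was 3.72 (SE 0.45, limma adjusted p = 0.00989). Its 2 probe sets differed by 3.43 and 3.72. The call was lost without mock replicate 1 (3.73, limma adjusted p = 0.0831) and without mock replicate 3 (3.71, limma adjusted p = 0.0777). CXCL10, another CXCR3 ligand, differed by 0.56 and the neutrophil chemokine CXCL8 by -0.45, and neither passed. Among 17 chemokine receptors 1 rose, CCR7, which guides lymphocytes to lymph nodes. It read 4.62 and 3.93 in mock and 7.49 and 6.80 with IRF5-4D, 2.87 (SE 0.38, limma adjusted p = 0.015), and the call was lost without IRF5-4D replicate 1 (2.53), IRF5-4D replicate 3 (3.21) or mock replicate 3 (2.52). CCR6, a receptor of CCL20, differed by 2.47 and missed the threshold (limma adjusted p = 0.107).

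**Figure D2:**
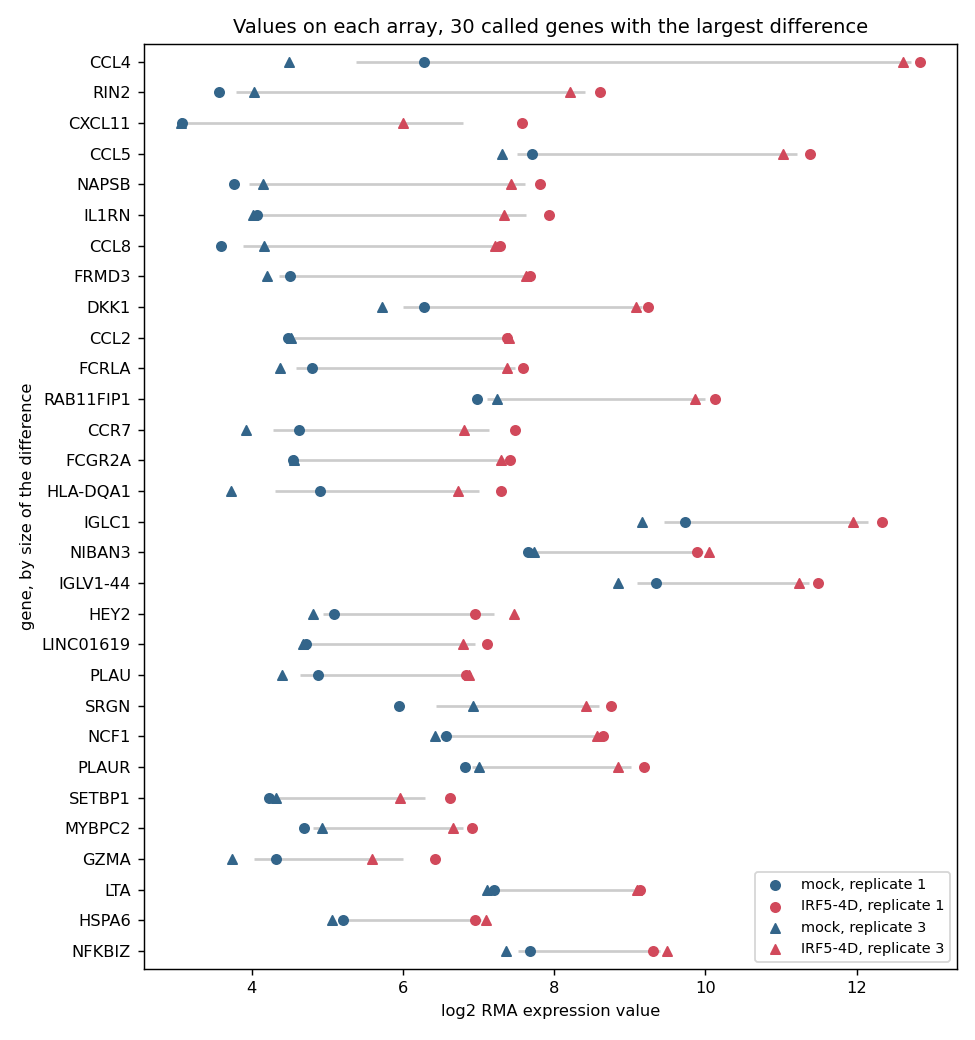
Log2 RMA values of the 30 called genes with the largest difference, on the mock arrays (blue) and the IRF5-4D arrays (red), with circles for replicate 1, triangles for replicate 3 and a grey line between the group means. The groups lie apart for each gene, as they do for all 63 called genes and for 31.2% of all genes. The arrays of a group spread most for mock in CCL4 (6.28 and 4.49) and for IRF5-4D in CXCL11 (7.578 and 5.998).

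Outside the chemokines few secreted mediators were called. Of 20 interleukin-1 family genes and receptors 1 rose, IL1RN, the antagonist that blocks the interleukin-1 receptor (median 0.012). It read 4.07 and 4.02 in mock and 7.93 and 7.33 with IRF5-4D, a rise of 3.59 (SE 0.22). The other 4 of its 5 probe sets differed by less than 0.5 of that amount, down to -0.099. None of 32 other interleukins and growth factors was called, and 1 in each direction had an unadjusted p under 0.05. The p35 chain gene IL12A differed by 1.397 (limma adjusted p = 0.375) and IL23A by -0.40. Of 33 TNF superfamily ligands and receptors 2 rose and 0 fell (median 0.088), where 0.314% of all genes rose. Lymphotoxin alpha (LTA) read 7.21 and 7.12 in mock and 9.14 and 9.09 with IRF5-4D, a rise of 1.96 (SE 0.20), and the call was lost without IRF5-4D replicate 1 (1.93, limma adjusted p = 0.0724) or replicate 3 (1.98, limma adjusted p = 0.0601). CD40, the receptor through which T cells help B cells, read 7.94 and 7.63 in mock and 9.50 and 9.41 with IRF5-4D, a rise of 1.67 (SE 0.23), with the call lost without any 1 of these 4 arrays (1.52 to 1.83). Its 4 probe sets rose by 1.67 to 2.35. LTB, the partner of LTA in the membrane lymphotoxin complex, lay just outside the threshold at 1.29 (limma adjusted p = 0.0579), and TNF itself differed by 0.91 (limma adjusted p = 0.877).

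None of the interferon genes themselves was called, while a few interferon-stimulated genes were. Of 17 measured type I and III interferon genes 0 passed in limma, 0 had an unadjusted p under 0.05, and the differences ran from -0.14 to 0.30, with IFNW1 at 0.30 and IFNL2 at 0.24. Of 8 measured members of the IRF family 0 passed and 0 had an unadjusted p under 0.05, with IRF4, a factor of plasma cell differentiation, at 0.57 and IRF3 at 0.27. None of 21 interferon receptor and JAK-STAT genes was called, 3 had an unadjusted p under 0.05 upward and 0 downward, and the feedback inhibitor SOCS1 differed by 1.29 (limma adjusted p = 0.164) and IFNGR2 by 0.63. None of 30 genes of the Toll-like receptor pathway that activates IRF5 was called either, 3 had an unadjusted p under 0.05 upward and 0 downward, and the adaptor TICAM1 differed by 0.61 (limma adjusted p = 0.273) and TASL by 0.46. These lists had medians of -0.004, 0.17, 0.11 and 0.043 in the same order.

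Of 49 measured interferon-stimulated genes 3 rose, 0 fell and 46 did not pass, with a median of 0.14, where 0.314% of all genes rose. At an unadjusted p under 0.05 limma gave 10 of them higher and 1 lower (22.45%, against 5.14% of all genes). Above 0 lay 34 of the 49, against 45.7% of all genes. IFIT1, which blocks translation of viral RNA, read 8.54 and 8.24 in mock and 9.95 and 10.15 with IRF5-4D, a rise of 1.66 (SE 0.18). Its relative IFIT5 read 7.92 and 7.80 in mock and 9.21 and 9.02 with IRF5-4D, a rise of 1.25 (SE 0.14). IFIT2 and IFIT3, the measured genes beside them, differed by 0.47 and 0.15 (limma adjusted p = 0.99 and 0.992). MX1, an antiviral GTPase, read 7.08 and 6.94 in mock and 8.05 and 8.13 with IRF5-4D, a rise of 1.08 (SE 0.12). The arrays of both groups lay apart for these genes, as they did for all 63 called genes and for 31.2% of all genes. The calls of IFIT1 and MX1 were lost without either IRF5-4D array (IFIT1 1.76 and 1.56, MX1 1.12 and 1.04), that of IFIT1 also without mock replicate 3 (1.51, limma adjusted p = 0.0501), and that of IFIT5 without IRF5-4D replicate 1 (1.16). RSAD2 at 1.69, IFI44L at 1.48 and ISG20 at 1.43 did not pass, with limma adjusted p of 0.402, 0.172 and 0.667.

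RTP4, a receptor chaperone, and RNF213, a large ubiquitin ligase, are interferon-inducible genes that the list did not hold. RTP4 read 8.68 and 8.43 in mock and 9.67 and 9.69 with IRF5-4D, a rise of 1.13 (SE 0.12), and its call was lost without IRF5-4D replicate 1 (1.13, limma adjusted p = 0.0724) or replicate 3 (1.12, limma adjusted p = 0.0663). RNF213 rose by 1.41 (SE 0.15), and 6 of its 8 probe sets were called when each was tested alone, while its lowest differed by -0.14. Its call was lost without IRF5-4D replicate 3 (1.32, limma adjusted p = 0.0654).

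The promoters of called genes were searched for the letters IRF proteins bind, GAAA followed by 2 letters of any kind and GAAA again, on either strand. The window was 250 bases before to 50 bases after each start that RefSeq gives (GRCh38.p14), and 47 of the 63 called genes had at least 1 window. An ISRE match was found for 10 of the 47 genes (21.3%) and for 613 of 15384 measured genes with a window (4.0%). Counted by window, 12 of 75 (16%) and 650 of 21490 (3.0%) held a match. In that count a gene with several starts enters more than once, and overlapping windows can share a match, as for IL1RN. The κB motif, to which NF-κB binds, was found for 11 of the 47 genes (23.4%) and for 2455 of all genes (16%). It was searched on both strands, and a match to either motif is a description of letters and not a shown binding site. Stretches before the start of 8 of the genes with an ISRE match are printed because these genes rose and their promoters carry that shared feature. They are written 5′ to 3′ along the gene's strand, with ISRE matches in capitals; a match on the opposite strand reads TTTC, 2 letters and TTTC.
IFIT1, chr10:89392467-89392569, plus strand: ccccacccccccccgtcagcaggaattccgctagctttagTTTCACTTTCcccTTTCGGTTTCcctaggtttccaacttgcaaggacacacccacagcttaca
IFIT5, chr10:89414483-89414567, plus strand: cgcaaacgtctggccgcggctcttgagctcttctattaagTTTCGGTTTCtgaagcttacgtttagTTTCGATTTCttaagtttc
RTP4, chr3:187368303-187368384, plus strand: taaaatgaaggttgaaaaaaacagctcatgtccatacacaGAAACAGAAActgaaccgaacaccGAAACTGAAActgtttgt
IL1RN, chr2:113127327-113127416, plus strand: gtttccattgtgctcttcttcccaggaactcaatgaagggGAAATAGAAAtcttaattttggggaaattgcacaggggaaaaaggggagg
FCRLA, chr1:161707097-161707186, plus strand: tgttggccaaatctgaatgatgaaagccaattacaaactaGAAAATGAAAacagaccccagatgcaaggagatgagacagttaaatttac
FCGR2B, chr1:161663081-161663142, plus strand: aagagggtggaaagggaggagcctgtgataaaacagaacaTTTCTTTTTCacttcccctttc
NCF1, chr7:74773855-74773944, plus strand: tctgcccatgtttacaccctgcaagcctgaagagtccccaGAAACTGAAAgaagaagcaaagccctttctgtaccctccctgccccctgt
FRMD3, chr9:83467882-83467971, minus strand: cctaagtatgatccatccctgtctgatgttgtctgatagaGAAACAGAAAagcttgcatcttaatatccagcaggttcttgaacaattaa
IFIT1, IFIT5 and RTP4 hold 2 matches each in the printed stretch, and the others hold 1. The remaining genes with a match were MX1 and SLC37A1. IL1RN, FCGR2B and FRMD3 have several starts in RefSeq, and which start was used in Reh cells was not measured.

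Fc receptors held the densest group of rises along the genome. Fc receptors bind the constant part of antibodies, and on B cells the inhibitory FCGR2B is the usual one of the gamma type. Of 14 measured Fc receptor genes 4 rose and 0 fell (median 0.027), where 0.314% of all genes rose. The 4 were FCGR2A, FCGR2B, FCGR2C and FCER1G. FCGR2A, an activating receptor of phagocytes, read 4.55 and 4.56 in mock and 7.41 and 7.30 with IRF5-4D. Its rise of 2.80 (SE 0.11, 6.98-fold) had the lowest adjusted p of all genes in limma, 2.14e-05. Its other probe set differed by 0.17. FCGR2C, on a probe set that may bind several transcripts, read 5.24 and 5.76 in mock and 7.22 and 7.45 with IRF5-4D. FCGR2B rose by 1.05 (SE 0.14) from 3.81 and 3.90, near the lower quartile of the arrays, to 5.07 and 4.73. FCGR2A, FCGR2B and FCGR2C are close copies, so their signals may be shared in part, and without _x_at probe sets FCGR2C read 0.090.

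In RefSeq order FCGR2A is followed among the measured genes by HSPA6, FCGR2C, FCGR3B, FCGR2B and FCRLA, and 5 of these 6 consecutive genes rose. FCGR3B, the other member, differed by 0.065 and did not pass. HSPA6, an inducible chaperone of the HSP70 family, read 5.21 and 5.06 in mock and 6.96 and 7.10 with IRF5-4D, a rise of 1.89 (SE 0.12). It was the only called gene among 25 heat shock and stress genes (median -0.034), in which DNAJB1 differed by 0.39 and HSPA5 by -0.71 without passing. FCRLA, an intracellular Fc receptor-like protein of B cells, read 4.80 and 4.38 in mock and 7.59 and 7.37 with IRF5-4D, and its 3 probe sets rose by 2.89 to 3.02. On either side the next genes were flat: FCRLB differed by -0.013, DUSP12 by -0.023, CFAP126 by 0.15 and SDHC by 0.11. FCER1G, a signalling chain of some activating Fc receptors, lies 7 measured genes before FCGR2A and rose by 1.80 (SE 0.21), from 4.56 and 4.73 to 6.55 and 6.34. This stretch was picked out after its values were seen, and no test was made of it.

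**Figure D3:**
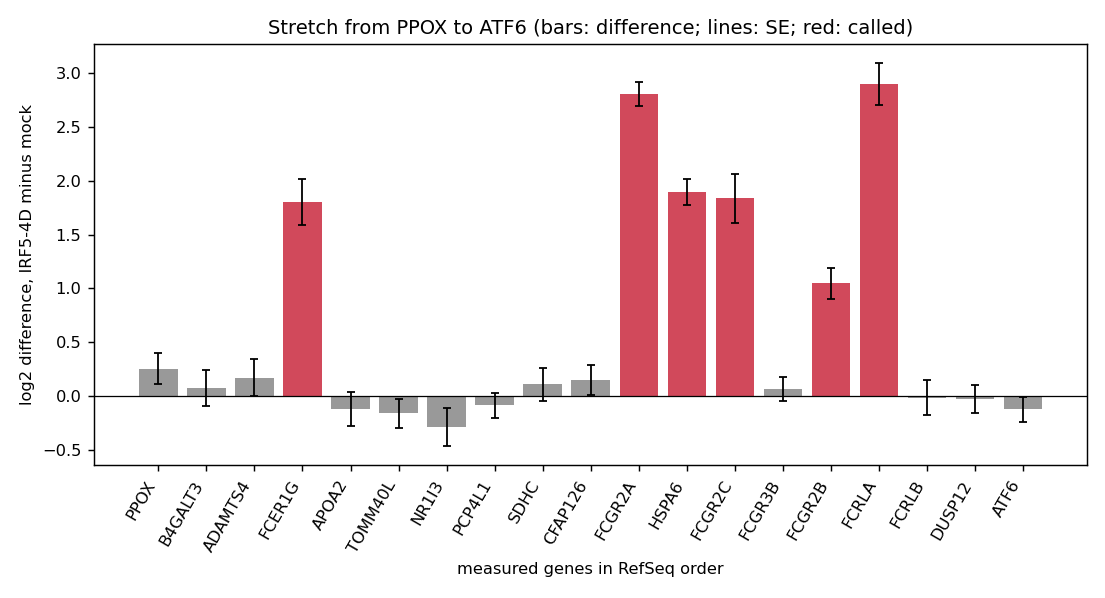
Log2 difference between IRF5-4D and mock for 19 consecutive measured genes in RefSeq order; bars give the difference, lines the limma SE, and red marks called genes. FCGR2A, HSPA6, FCGR2C, FCGR2B and FCRLA stand at 1.05 to 2.89, while FCGR3B among them and the genes on both sides lie between -0.29 and 0.26 apart from FCER1G at 1.80.

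The calls of FCGR2A, HSPA6 and FCRLA stayed in each fit without 1 array. That of FCGR2B was lost without IRF5-4D replicate 1 (0.88), mock replicate 1 (0.998) or mock replicate 3 (1.10), that of FCGR2C without mock replicate 1 (1.58) or IRF5-4D replicate 1 (1.95) or 3 (1.72), and that of FCER1G without IRF5-4D replicate 1 (1.70), IRF5-4D replicate 3 (1.91) or mock replicate 1 (1.72). Over all called genes, 15 of 63 (23.8%) had another called gene within 3 steps among the measured genes, and 1.67% of the other genes had a called gene that close. The pairs beside the Fc receptor stretch were CCL2 with CCL8, IFIT1 with IFIT5, LTA with LST1, PLAUR with KCNN4, and the immunoglobulin genes IGLL5 with IGLC1.

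Genes usually linked with NF-κB rose in part. Of 38 measured NF-κB targets 6 rose and 0 fell (median 0.17), where 0.314% of all genes rose. The 6 were CCL5, CCR7, LTA and CD40 described above, PLAU and CCND2. PLAU, the urokinase that turns plasminogen into plasmin, read 4.88 and 4.40 in mock and 6.84 and 6.87 with IRF5-4D, a rise of 2.22 (SE 0.27), and PLAUR, its receptor at the cell surface, read 6.83 and 7.003 in mock and 9.19 and 8.84 with IRF5-4D, a rise of 2.10 (SE 0.26). Protease and receptor were both called. CCND2, a D-type cyclin, read 3.80 and 3.78 in mock and 5.76 and 5.52 with IRF5-4D, and its other 3 probe sets differed by less than 0.5 of its rise of 1.85. NFKBIZ, an atypical IκB protein of the nucleus, was the only called member of 20 NF-κB subunits and feedback inhibitors (median 0.24). It read 7.68 and 7.37 in mock and 9.30 and 9.49 with IRF5-4D, a rise of 1.88 (SE 0.28). NFKB2 at 0.76 and the canonical inhibitor NFKBIA at 0.65 did not pass. The calls of PLAU, PLAUR, NFKBIZ and CCND2 were each lost without IRF5-4D replicate 1 (2.23, 1.93, 1.97 and 1.73) and without IRF5-4D replicate 3 (2.20, 2.28, 1.78 and 1.97). Those of PLAUR, NFKBIZ and CCND2 were lost without mock replicate 1 (2.01, 2.03 and 1.86), and all 4 without mock replicate 3 (1.98, 2.19, 1.72 and 1.84). That of CCND2 was also lost without IKKβ(EE) replicate 1 or 3, which leaves its value of 1.85 as it was. Of 44 genes linked with Hodgkin lymphoma the 3 called ones, CCL5, LTA and CD40, are all among these targets.

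Genes of the B lineage moved in a few places only. Of 35 B cell identity genes FCRLA alone was called (median 0.042), with MS4A1, the gene of CD20, at 1.59 (limma adjusted p = 0.654) and CD72 at 0.53. Of 24 precursor B cell genes 1 rose, KIT, the receptor of stem cell factor, which read 7.93 and 7.80 in mock and 9.84 and 9.61 with IRF5-4D. Its rise of 1.87 (SE 0.17, limma adjusted p = 0.0016) stayed called in each fit without 1 array. NIBAN3, a protein of B cells, read 7.65 and 7.73 in mock and 9.89 and 10.05 with IRF5-4D, 4.87-fold higher, and THEMIS2, a signalling scaffold of B cells, rose by 1.03 (SE 0.16), a call lost without IRF5-4D replicate 1 (1.05) or 3 (1.02), mock replicate 3 (0.84), or IKKβ(EE) replicate 1 or 3 (1.03 in both).

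Probe sets named for immunoglobulin lambda genes read higher, with a reservation. IGLC1 read 9.74 and 9.17 in mock and 12.34 and 11.95 with IRF5-4D, IGLV1-44 read 9.35 and 8.85 against 11.49 and 11.24, and IGLL5 read 7.25 and 7.01 against 8.38 and 8.05. All 3 are _x_at probe sets that may bind many lambda transcripts. The call of IGLL5 was lost without IRF5-4D replicate 1 (0.92) or 3 (1.24) and without mock replicate 1 (1.20) or 3 (0.96). Without such probe sets the same genes read 0.48, -0.011 and -0.26, and none was called. Which lambda gene rose can therefore not be told from these arrays. Of 18 MHC class II genes 1 rose, HLA-DQA1, which presents peptides to helper T cells, from 4.90 and 3.73 in mock to 7.30 and 6.73 with IRF5-4D (2.70, SE 0.41, limma adjusted p = 0.0353). Its other 2 probe sets differed by 0.024 and -0.082, and the call was lost without IRF5-4D replicate 1 (2.42), IRF5-4D replicate 3 (2.98), mock replicate 3 (2.12), or IKKβ(EE) replicate 1 or 3 (2.70 in both). The list's median was 0.28, with 15 of 18 members above 0 against 45.7% of all genes, and 9 had an unadjusted p under 0.05 upward and 0 downward. Over all 19775 genes 487 had such a p upward and 530 downward. HLA-DRA differed by 0.43 and the invariant chain CD74 by 0.35 without passing, and the transactivator CIITA differed by -0.088. Of the 20 genes of antigen processing and class I none was called, with TAP1 at 0.51 (limma adjusted p = 0.556) and CALR at -0.44, and 2 had an unadjusted p under 0.05, both upward.

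Several called genes are better known from phagocytes and cytotoxic cells. NCF1, a cytosolic subunit of the NADPH oxidase, read 6.57 and 6.42 in mock and 8.65 and 8.56 with IRF5-4D, a rise of 2.11 (SE 0.21), on a probe set that may also read its near-identical pseudogenes. Its call was lost without IRF5-4D replicate 1 (2.06, limma adjusted p = 0.0595). NLRP3, the sensor of an inflammasome, rose by 0.89 (SE 0.12) from 3.83 and 4.00 to 4.88 and 4.73, and P2RX7, the ATP-gated channel that can trigger it, rose by 1.17 (SE 0.19). SRGN, the proteoglycan of secretory granules, read 5.95 and 6.93 in mock and 8.75 and 8.42 with IRF5-4D. GZMA, a granule protease of killer cells, read 4.32 and 3.74 in mock and 6.42 and 5.59 with IRF5-4D. Among these genes SRGN spread in mock (SD 0.70, n = 2) and GZMA with IRF5-4D (SD 0.58, n = 2). GZMA was the only called gene of 23 T and NK cell markers (median -0.092) and FCER1G the only one of 21 myeloid markers (median -0.038). Of the defining markers of these cell types 0 were called, and CD4, ITGAM, CSF1R and MPO had signal above the median of all probe sets in both groups; their part in the rises was not tested. The calls of NLRP3, P2RX7 and SRGN were lost without IRF5-4D replicate 1 (0.81, 1.18 and 1.98), IRF5-4D replicate 3 (0.96, 1.17 and 2.32) or mock replicate 1 (0.81, 1.39 and 1.66). Those of NLRP3 and P2RX7 were lost also without mock replicate 3 (0.97 and 0.96), that of P2RX7 without either array of the combination (1.17 in both), and that of GZMA without IRF5-4D replicate 1 (1.56), mock replicate 1 (2.26), mock replicate 3 (1.68), or IKKβ(EE) replicate 1 or 3 (1.97 in both).

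Of the 63 called genes 37 stood in no list. The largest rise among them was that of RIN2, an effector of the endosomal GTPase RAB5, which read 3.56 and 4.03 in mock and 8.60 and 8.21 with IRF5-4D (4.61, SE 0.28, 24.4-fold). Its other probe set differed by 0.16. RAB11FIP1, which acts with RAB11 on recycling endosomes, read 6.98 and 7.24 in mock and 10.13 and 9.87 with IRF5-4D (7.43-fold). FRMD3, a FERM domain protein, read 4.51 and 4.20 against 7.68 and 7.63, and its 3 probe sets rose by 1.13 to 3.43. NAPSB, a napsin pseudogene, read 3.76 and 4.15 against 7.81 and 7.43, and the long non-coding RNA LINC01619 read 4.71 and 4.68 against 7.11 and 6.80. SMIM14, a small membrane protein, rose by 1.59 (SE 0.15) from 8.97 and 9.09 to 10.60 and 10.65. These 6 genes kept their calls in each fit without 1 array. DKK1, a secreted inhibitor of WNT signalling, read 6.28 and 5.73 in mock and 9.24 and 9.09 with IRF5-4D (3.16, SE 0.19). It was the 1 called gene of 29 genes of the WNT pathway (median 0.0007), and TCF7L2 at 0.50 and FRZB at -0.40 did not pass.

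Transcription regulators among the remaining genes were HEY2, a repressor of the NOTCH pathway, CREB5 (1.62), SETBP1 and CECR2 (1.61). HEY2 read 5.08 and 4.82 in mock and 6.95 and 7.46 with IRF5-4D (2.26, SE 0.26), and the call was lost without IRF5-4D replicate 3 (2.00) or mock replicate 3 (2.13). SETBP1 read 4.22 and 4.32 against 6.62 and 5.96. Surface proteins and channels were CD48, a ligand of the SLAM family, at 9.22 and 9.35 against 10.64 and 10.57, the potassium channel KCNN4, CALCRL, SLITRK6, AMIGO2, LST1, ITM2C and SERINC2, with rises from 1.04 to 1.39. The others were MYBPC2 (1.98), PDLIM1 (1.34), SLC37A1 (1.09), HS3ST1 (1.09), RASAL1 (1.08), CHST7 (0.93) and CYTH1 (0.73). CYTH1 kept its call in 0 of the 8 fits without 1 array, and CHST7, KCNN4, CALCRL, CD48 and RASAL1 in 2 of them. Without IRF5-4D replicate 1 the calls of AMIGO2 (1.05), CREB5 (1.34), CECR2 (1.72), HS3ST1 (0.92), ITM2C (1.23), MYBPC2 (1.86), PDLIM1 (1.42), SETBP1 (1.68), SLC37A1 (1.04) and SLITRK6 (1.13) were lost. Without IRF5-4D replicate 3 those of CECR2 (1.49), ITM2C (1.23), LST1 (0.94), MYBPC2 (2.11), PDLIM1 (1.25), SERINC2 (1.23) and SLC37A1 (1.14) were lost. Leaving out mock replicate 1 lost CREB5 (1.58), HS3ST1 (1.08), ITM2C (1.25), LST1 (1.15), MYBPC2 (1.86), PDLIM1 (1.12), SETBP1 (1.97), SLC37A1 (0.88) and SLITRK6 (1.41). Leaving out mock replicate 3 lost AMIGO2 (1.14), CECR2 (1.27), HS3ST1 (1.09), ITM2C (1.22), LST1 (1.09), SETBP1 (2.07) and SLITRK6 (1.36).

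GIMAP4, a GTPase of the lymphocyte family GIMAP, was the 1 gene that fell. It read 5.97 and 5.94 in mock and 4.56 and 4.84 with IRF5-4D and fell by 1.26 (SE 0.17, limma adjusted p = 0.015). The other 6 GIMAP genes differed by -0.22 to 0.54 and did not pass. The call was lost without IRF5-4D replicate 1 (-1.12), IRF5-4D replicate 3 (-1.40), mock replicate 1 (-1.24) or mock replicate 3 (-1.27). The next lowest p values among genes with lower readings were those of GOLIM4 (-1.29, limma adjusted p = 0.0713), DUOX1 (-0.67), BEST2 (-0.72), TSPAN32 (-0.61) and the actin gene ACTA2 (-0.81, limma adjusted p = 0.0981).

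Other lists held no called gene. Apoptosis regulators (29 genes, median 0.020) had BCL2L11 at 0.59 and HRK at 0.58, and p53 targets (21 genes, median -0.023) had FAS at -0.68 and TP53INP1 at 0.52. For AP-1 and immediate early genes (32 genes, median 0.054) the largest values were DUSP10 at 1.23 and DUSP4 at 1.12, and for stromal and epithelial markers (20 genes, median -0.067) CDH1 at 1.72 and ACTA2 at -0.81. The 11 reference genes (median 0.066) differed by -0.030 to 0.23, with HPRT1 at 0.23 and SDHA at 0.16. At an unadjusted p under 0.05 limma gave 2 of the apoptosis regulators and 2 of the p53 targets, all higher, 2 AP-1 genes higher and 1 lower, and 0 of the reference genes. Of the 20 stromal and epithelial markers it gave 1 higher and 4 lower (25%, against 5.14% of all genes). The share was larger in MHC class II (50%), NF-κB targets (31.6%), the TNF superfamily (30.3%) and chemokine receptors (29.4%). It was 28.6% in both the Fc receptor and GIMAP lists. In these lists the TNF superfamily and GIMAP each had 1 lower gene, and the others had 0. Among 39 cell cycle genes CCND2 alone was called, although 35 of them lay above 0 with a median of 0.12.

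**Figure D4:**
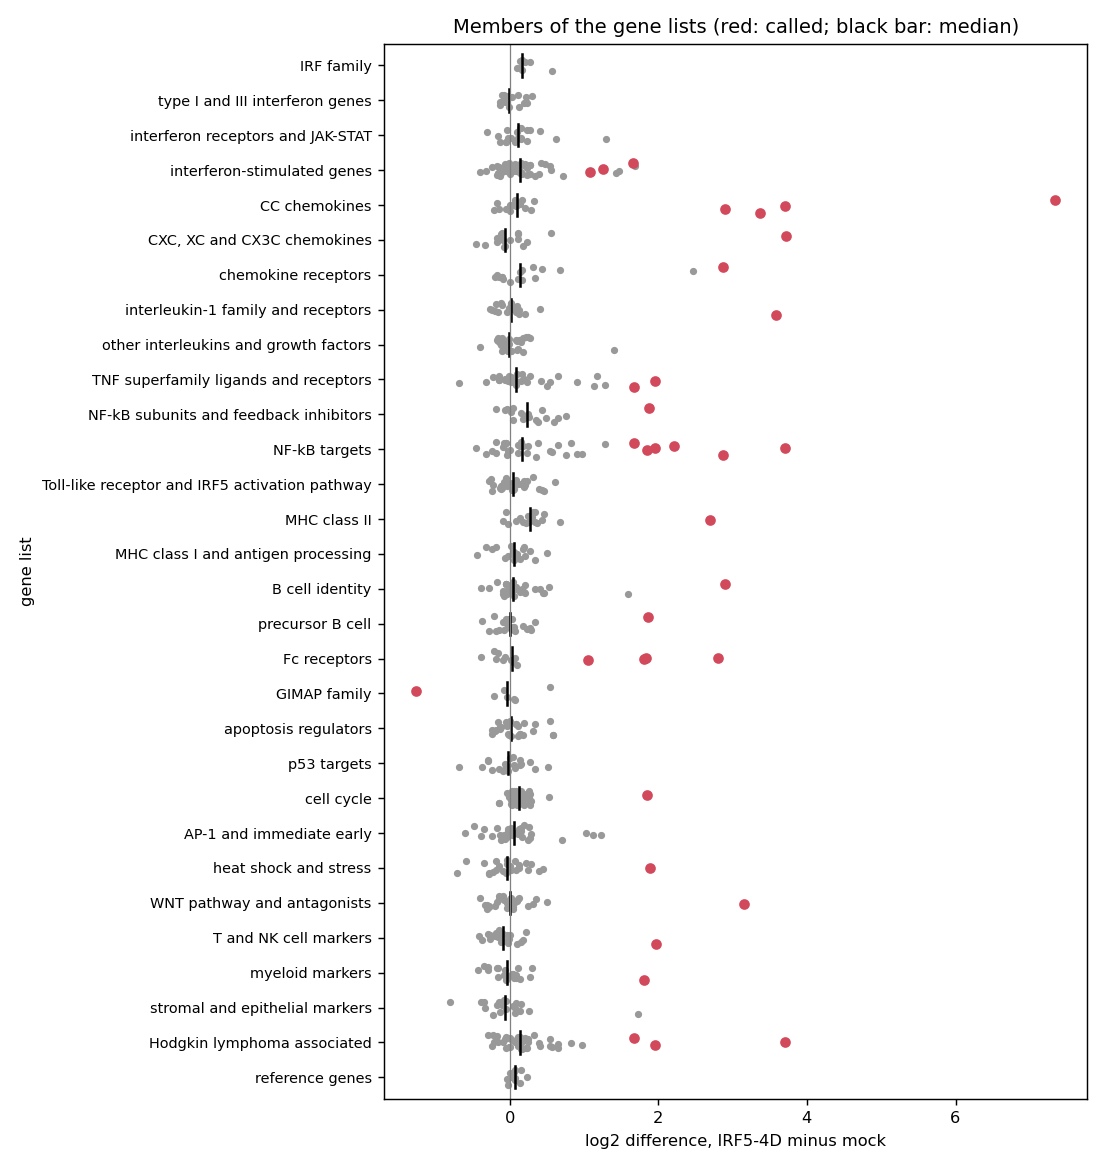
Log2 difference between IRF5-4D and mock for each measured member of the 30 gene lists; red points are called genes and black bars are list medians. Medians lie between -0.092 and 0.28, and the red points stand to the right except for GIMAP4.

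IRF5-4D was then set directly against IKKβ(EE) alone, to ask which rises differ between the constructs. Of 19775 genes 62 were higher (0.314%) and 89 lower (0.45%) with IRF5-4D, 0.764% in either direction. Of the 63 genes called against mock, 43 were also higher than with IKKβ(EE), 1 was lower and 19 did not pass; both comparisons use the same IRF5-4D arrays, so the count of 43 is not an independent one. RIN2 was 4.55 (SE 0.28) higher with IRF5-4D than with IKKβ(EE), IL1RN 3.56, CCL8 3.40, FRMD3 3.26 and DKK1 3.09, each at a level with IKKβ(EE) close to mock. For RIN2 the IKKβ(EE) arrays read 3.98 and 3.72, and for CCL8 3.86 and 3.84. CCL4 was 4.48 (SE 0.57, limma adjusted p = 0.00837) higher with IRF5-4D, although with IKKβ(EE) it read 9.01 and 7.48. The antiviral genes IFIT1 (1.23), IFIT5 (1.17), MX1 (1.02), RTP4 (0.91) and RNF213 (1.02) were all higher with IRF5-4D, as were FCGR2A (2.82), FCER1G (1.77), FCRLA (2.84), HSPA6 (1.80), PLAUR (2.55) and KIT (1.85). HLA-DQA1 was the gene that went the other way, 4.36 (SE 0.41) lower with IRF5-4D than with IKKβ(EE).

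Where the direct comparison did not pass, the interval of the difference says how far the constructs may still differ. CCL2 differed by 0.029 with a 95% interval from -0.33 to 0.39, CD40 by -0.067 (-0.58 to 0.45), CCND2 by -0.20 (-0.87 to 0.48), LINC01619 by -0.23 (-0.62 to 0.16) and HS3ST1 by -0.24 (-0.55 to 0.069). CCR7 (-0.45), PLAU (-0.37), SRGN (-0.29) and NFKBIZ (0.30) also did not pass, nor did CXCL11 at 2.29 (limma adjusted p = 0.0755). A p that misses the threshold does not show that the constructs act alike on these genes. Without IKKβ(EE) replicate 1, IKKβ(EE) replicate 3, IRF5-4D replicate 1 or IRF5-4D replicate 3 the 151 genes of this comparison became 43, 69, 44 or 42.

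**Figure D5:**
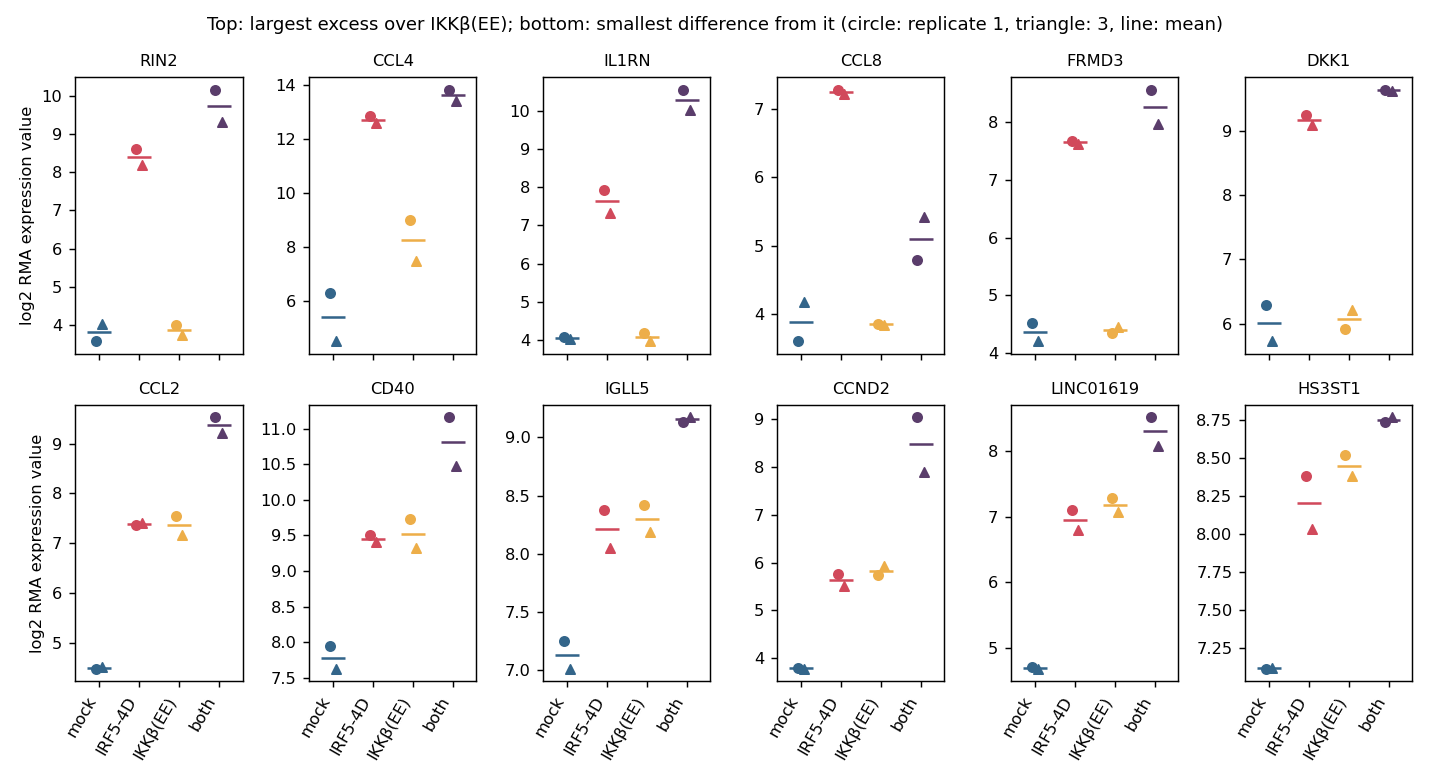
Log2 RMA values on all 8 arrays for 6 risen genes with the largest excess of IRF5-4D over IKKβ(EE) (top row) and 6 with the smallest difference between them (bottom row); circles are replicate 1, triangles replicate 3 and lines group means, and the y axes differ between panels. RIN2 reads 3.98 and 3.72 with IKKβ(EE) against 8.60 and 8.21 with IRF5-4D, while CCL2 reads 7.56 and 7.17 against 7.38 and 7.41.

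Of the remaining 4 arrays, the 2 of the combination hold the same construct in other samples. On a given probe set the group means of these 4 arrays do not enter the difference from mock, although they share the estimate of the spread with it. They do enter the choice of a gene's probe set, which rests on the mean across all 8 arrays. The count below is therefore not fully independent of the calls. For IL1RN another probe set read higher in mock, 5.09 and 5.53, and differed from mock by 0.725 with IRF5-4D. Between cells with both constructs and cells with IKKβ(EE) alone, which differ by IRF5-4D, 49 of the 62 risen genes were higher in limma, where 1.37% of all genes were. IL1RN was higher there by 6.20, RIN2 by 5.89, CCL4 by 5.39, FRMD3 by 3.88, DKK1 by 3.56 and FCGR2A by 2.53. The 13 that were not called were HLA-DQA1, IGLC1, IGLV1-44, GZMA, NFKBIZ, KIT, CREB5, SLITRK6, SERINC2, HS3ST1, FCGR2B, NLRP3 and CYTH1. KIT differed there by 0.44 and GZMA by 0.43, and HLA-DQA1, already at 11.4 with IKKβ(EE), by 0.10.

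Probe sets of 1 gene did not always move together. Of the 63 called genes 21 had 1 probe set, and the other 42 had 92 further ones. Of these 74 shared the sign of the probe set used and 39 reached at least 0.5 of its size, so that 24 of the 42 genes had a second probe set with at least that much. CCL5, CD40, FCRLA and CXCL11 are examples with all probe sets alike, and RIN2, FCGR2A, IL1RN, PLAU and HLA-DQA1 rest on 1 of theirs. Those of LST1 were alike too, but all are _x_at probe sets that may bind several transcripts. With the mean of a gene's probe sets in place of 1 of them, 39 of the 63 calls stayed, and among the 24 lost were IGLC1 (0.65), IGLV1-44 (0.44), HLA-DQA1 (0.88), PLAU (1.26), PLAUR (1.49), SRGN (1.34), CCND2 (0.58) and NLRP3 (0.33). Moderated variances fitted robustly lost 7 calls, those of CXCL11, CCR7, HLA-DQA1, SRGN, GZMA, NFKBIZ and CCND2, at unchanged differences. At the threshold, CYTH1, P2RX7, KCNN4, CCND2 and CHST7 lay just inside with limma adjusted p from 0.0401 to 0.0492. RGS1, a brake on chemokine receptor signalling, LTB, GOLIM4, PIWIL4 and KLRK1-AS1 lay just outside with 0.0544 to 0.072.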

How the data were processed

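RNA of 8 samples of Reh cells was hybridised to Affymetrix U133 Plus 2.0 arrays. The authors deposited a log2 value for each probe set on each array, made with RMA per the submitters' processing notes, with no version stated. Of 54675 probe sets, 62 controls and 13522 without exactly 1 symbol in the 2016 platform annotation were left out, and each of 19775 genes was represented by the probe set whose mean across the 8 arrays was highest, whatever its level. Group means were fitted to all 8 arrays in limma 3.58.1 (R 4.3.3) with lmFit and eBayes (4 residual and 5.09 prior degrees of freedom, median SE 0.14), without a replicate block. P values were adjusted by Benjamini-Hochberg over all genes, with a threshold of 0.05. The fit was tested on simulated data. IRF5 and IKBKB probe sets, and the agreement between probe sets, come from the same fit to every probe set. RefSeq gave neighbours and promoter sequences. Only the number of arrays bears on precision here, since no depth applies to arrays.

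The text names any gene called against mock, the 2 largest values of a list without a call, and the genes nearest to the threshold; others were chosen after their values were seen. The comparison, the gene lists and the rule were chosen with earlier results of these data known. A check of the replicate numbers correlated the differences between arrays 1 and 3 across the 6 pairs of groups (-0.073 to 0.34; mock and IRF5-4D 0.33), which did not establish pairing. Alternatives covered the choice of probe set, a filter on level, normalization, the variance model, array weights, the block, fewer groups and each array left out.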

Additional observations from a re-analysis of the deposited data

Results flagged for a closer look

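The effect of IRF5-4D was not the same with and without IKKβ(EE) for 4 of the 63 called genes, by limma's interaction over all genes (0.126% of genes called). IL1RN rose by 3.59 without IKKβ(EE) and by 6.20 with it, an interaction of 2.62 (SE 0.32, limma adjusted p = 0.0238), and FCER1G by 1.80 and 4.39, an interaction of 2.59 (SE 0.30, limma adjusted p = 0.0238). IGLC1 differed by 2.70 and 0.55 (-2.14, SE 0.29, limma adjusted p = 0.0356) and IGLV1-44 by 2.27 and 0.52 (-1.74, SE 0.25, limma adjusted p = 0.0457), and with IKKβ(EE) alone these 2 already read 12.6 and 11.7. Without 1 array at a time the interaction of IL1RN ran from 2.32 to 2.92, of FCER1G from 2.22 to 2.95, of IGLC1 from -2.43 to -1.86 and of IGLV1-44 from -1.99 to -1.50, and the call stayed in 2, 2, 2 and 1 of 8 fits.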

How the results depend on the processing

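The count of called genes moved with the arrays and with the method. Without 1 array at a time, limma called 24 to 83 genes between IRF5-4D and mock (63 with all arrays), 42 to 182 between IRF5-4D and IKKβ(EE) (151), and 0 to 8 of the 63 by interaction (4). The count against mock was 41 when only genes above the median level were tested and 106 when each probe set was tested on its own. The level filter also gave 95 against IKKβ(EE) and an interaction count of 0. The interaction count was 2 with the mean of a gene's probe sets, 2 without _x_at probe sets and 2 after repeated quantile normalization. Without _x_at probe sets IGLL5 read -0.2645 and IGLV1-44 -0.0106, below 0; both then rest on other probe sets. Fits with the number 1 or 3 as a replicate block gave 92 genes against mock, including all 63, 225 against IKKβ(EE) and an interaction count of 8; the numbers did not establish pairing. Counts under the other settings tried (median centring, variance trend, robust variances, array weights, only the groups compared, thresholds of 0.1 or 2-fold) stayed within 1.5 times, and both motif counts were the same for the bases before the start alone. The fit to only the groups compared does not apply to the interaction. Levels near the lower quartile of an array limit the size of a fold, and their bearing on its direction was not tested.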

Other observations

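With every probe set tested on its own, 104 of 54613 rose and 2 fell (0.194% called). Of the 106, 11 had several gene symbols or none, all higher. The 95 named ones belonged to 66 genes, of which 58 are among the 63 called ones. CCR6 at 2.47, CDH1 at 1.72 and RSAD2 at 1.69 had large differences that did not pass (limma adjusted p = 0.107, 0.452 and 0.402).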
